A study of Mus musculus with 24 samples.

Results

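The suppressors of cytokine signalling (SOCS) are a family of feedback inhibitors of cytokine receptors. Their transcripts were followed in mouse B cells that lacked the Ets-family transcription factors PU.1 (gene Spi1), SpiB (gene Spib) or both. The 7 genes described here were taken by symbol from the deposited count tables, which list 27179 genes: Cish, Socs1, Socs2, Socs3, Socs5, Socs6 and Socs7. All 7 were present. Socs4, also of this family by name, was not in this set and is given below with other SOCS box genes. RNA-seq libraries, 24 in all, came from lymph node B cells of 4 genotypes on a C57BL/6 background, with 2 biological replicates per genotype at each of 3 stages. Control mice (Cd23T/+) carried the Cd23-Cre transgene alone, and PU.1 cKO mice (Spi1fl/fl Cd23T/+) also carried floxed Spi1. SpiB KO mice (Spi1fl/fl Cd23+/+ Spib-/-) had floxed Spi1 but no Cre, and PU.1 SpiB DKO mice (Spi1fl/fl Cd23T/+ Spib-/-) carried both changes. SpiB KO and control mice thus differed in Cre and in floxed Spi1 as well as in Spib. The stages were naive cells, cells after 48 h with CD40 ligand (CD40L) and IL-4, and cells after 48 h with lipopolysaccharide (LPS) and IL-4. IL-4 was therefore present in both cultures and in no naive sample.

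Cytokine receptors such as the IL-4 receptor signal through Janus kinases (JAKs), which phosphorylate STAT transcription factors. STATs switch on genes that include Cish, Socs1, Socs2 and Socs3, and the proteins made from them bind the receptor or the kinase through an SH2 domain and damp the signal. A shared C-terminal SOCS box recruits elongins and a cullin-5 ubiquitin ligase to the bound protein. SOCS1 is a strong inhibitor of interferon and IL-4 signalling, SOCS3 acts on receptors of the gp130 group, and CIS (the protein of Cish) and SOCS2 act on receptors that use STAT5. SOCS5, SOCS6 and SOCS7 are less closely tied to cytokine induction.

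RefSeq promoter windows of build GRCm38.p6, reaching from 250 bases before to 50 bases after a transcript start, were matched for 3 of the 7 members, and no window was matched for Socs2, Socs5, Socs6 or Socs7. These 3 are shown because they were the ones matched. All 3 genes were called higher in DKO than in control cells with LPS + IL-4, but so were Socs2 and Socs5, which had no window. Each line gives 30 bases on the strand of the gene, 5′ to 3′, with the matches in capitals. In Cish and Socs3 the capitals mark the STAT motif TTCNNNGAA, and in Socs1 they mark 2 overlapping matches to GAAA, any 2 bases, GAAA, the core of an interferon response element.
Cish (chr9:107296654-107296683, plus strand): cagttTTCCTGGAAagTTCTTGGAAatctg
Socs1 (chr16:10785597-10785626, minus strand): cttgccgGAAAGAGAAACCGAAAgcggggg
Socs3 (chr11:117969501-117969530, minus strand): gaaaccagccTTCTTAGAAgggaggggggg
The matches in Cish began at bases 1 and 12 of the transcript, and the pair in Socs1 began 83 and 77 bases before the start. The match in Socs3 began 154 bases before a transcript start that lies inside the span of the gene (chr11:117966079-117970336). On both strands, TTCNNNGAA was held by 8.3% of the 32851 windows of the same length and the GAAA pair by 3.44%. The PU-box core GAGGAA, a sequence that PU.1 and SpiB can bind, was held by 28.3% of windows and matched 1 time in Socs1, 141 bases before the start, and not in the windows of Cish or Socs3. The STAT6-type spacing, TTC, any 4 bases, GAA (6.95% of windows), and the Ets-IRF composite, GGAA, any 2 bases, GAAA (2.72%), matched none of the 3 windows.

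Libraries held 14231188 to 18194629 counts in naive cells, 9598674 to 61640683 counts with CD40L + IL-4 and 22757630 to 73658850 counts with LPS + IL-4. Rn45s, the ribosomal RNA precursor, took 3.62% of counts in the first naive control library and 0.185% in the second. In DKO with CD40L + IL-4 it took 6.64% and 0.464%, and in PU.1 cKO with LPS + IL-4 0.827% and 3.26%. Its part in calls that turned on 1 library was not tested. Spib was lower in every SpiB KO and DKO library than in any control library of its stage, with log2 fold changes in DKO of -3.83 (SE 0.13) in naive cells and -4.17 (SE 0.20) with LPS + IL-4. Spi1 in DKO changed by -0.63 (SE 0.11) in naive cells and by -1.73 (SE 0.21) with CD40L + IL-4, but differed from control by -0.11 (SE 0.10, edgeR quasi-likelihood test, adjusted p = 0.448) with LPS + IL-4, where the DKO libraries read 63.9 and 58.9 CPM (counts scaled to a library's normalized total) beside 72.0 and 60.7 CPM in control. The PU.1 cKO libraries of that culture read 44.2 and 41.2 CPM, below every control and DKO library. The count covers the whole gene, floxed exon and the rest together, so it does not check the deletion itself. The LPS libraries are called DKO from their labels. The study described the floxed exon as partly retained in naive DKO cells and as efficiently removed in both kinds of culture, so naive DKO cells are a partial model of the double loss. Naive Spi1 levels were 155 and 174 CPM in control, 59.5 and 53.3 CPM for PU.1 cKO and 103 and 110.2 CPM for DKO, whose libraries lay between the others. Cre was driven by Cd23 regulatory sequences, and the Cd23 gene Fcer2a itself fell by 2.99 (SE 0.15) in naive DKO cells. The summed level of 6 B cell markers was 2905 CPM or more in every library.

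In control cells both cultures raised Cish, Socs1 and Socs2, of which Cish and Socs2 started from low or absent levels. Cish (chr9:107296659-107302784) read 0.305 and 0.669 CPM in naive cells, 220 and 291 CPM with CD40L + IL-4, and 159 and 139 CPM with LPS + IL-4, on the scale set over all libraries. The groups did not overlap, and Cish rose by 9.01 (SE 0.27) and 8.24 (SE 0.27) on the log2 scale (edgeR, adjusted p = 1.03e-14 and 1.47e-14). The naive values rested on only 4 and 9 counts. Socs1 (chr16:10783808-10785536) read 13.7 and 27.1 CPM in naive cells, 236 and 352 CPM with CD40L + IL-4, and 123 and 97.8 CPM with LPS + IL-4, and rose by 3.85 (SE 0.27) and 2.43 (SE 0.26). Socs2 (chr10:95383903-95417321), an inhibitor of growth hormone receptor signalling, had 0 counts in both naive control libraries. It read 208 and 199 CPM with CD40L + IL-4 and 32.1 and 30.2 CPM with LPS + IL-4. Taking 3 counts per library as the most that a count of 0 allows (0.226 CPM, counting error only), Socs2 was at least 901-fold higher with CD40L + IL-4 and at least 138-fold higher with LPS + IL-4 than in naive control cells.

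The remaining members took other paths through activation. Socs3 (chr11:117966079-117970336) read 11.4 and 11.8 CPM in naive control cells, 30.3 and 36.1 CPM with CD40L + IL-4 and 18.0 and 14.99 CPM with LPS + IL-4. It rose by 1.51 (SE 0.20, adjusted p = 3.12e-06) with CD40L + IL-4, whereas the difference of 0.50 (SE 0.20) with LPS + IL-4 had an adjusted p of 0.0299 but stayed under the 1.5-fold threshold used for a call. Socs5 (chr17:87107278-87137647), which has been tied to the IL-4 and epidermal growth factor receptors, went the other way. Its control levels were 42.8 and 60.7 CPM in naive cells, 10.5 and 13.0 CPM with CD40L + IL-4, and 6.39 and 4.71 CPM with LPS + IL-4, falls of 2.14 (SE 0.22) and 3.24 (SE 0.22). Socs6 read 15.5 and 17.2 CPM in naive cells, 10.6 and 10.3 CPM with CD40L + IL-4 and 17.6 and 20.2 CPM with LPS + IL-4. It fell by 0.65 (SE 0.15) with CD40L + IL-4, a call lost when the second naive control library was left out (-0.57), and was 0.86 (SE 0.14) higher with LPS + IL-4 than with CD40L + IL-4. Socs7 (chr11:97362292-97398542) lay between 43.7 and 54.7 CPM in all 6 control libraries and was not called in any comparison of stages.

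A gene was called at an adjusted p under 0.15 and a fold change over 1.5. By that rule 6 of 7 members, Socs2 with 0 counts in naive control among them, were called between CD40L + IL-4 and naive control cells, where 48.8% of the 13684 genes tested were called, and 4 of 7 between LPS + IL-4 and naive cells, where 63.9% were. Between the cultures 6 of 7 were called against 41.2% of all genes: Socs2 (-2.71), Socs1 (-1.42), Socs5 (-1.10), Socs3 (-1.01) and Cish (-0.78) were lower with LPS + IL-4, and Socs6 was higher. The Cish call between cultures was lost without the second CD40L + IL-4 control library (-0.56). The counts of the CD40L + IL-4 libraries were deposited in a table of their own and those of the naive and LPS + IL-4 libraries in another, so in the comparisons of CD40L + IL-4 with naive cells and with LPS + IL-4 the stage and the library set cannot be told apart. LPS + IL-4 and naive cells were compared within a table, which does not show that they were sequenced together.

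**Figure D1:**
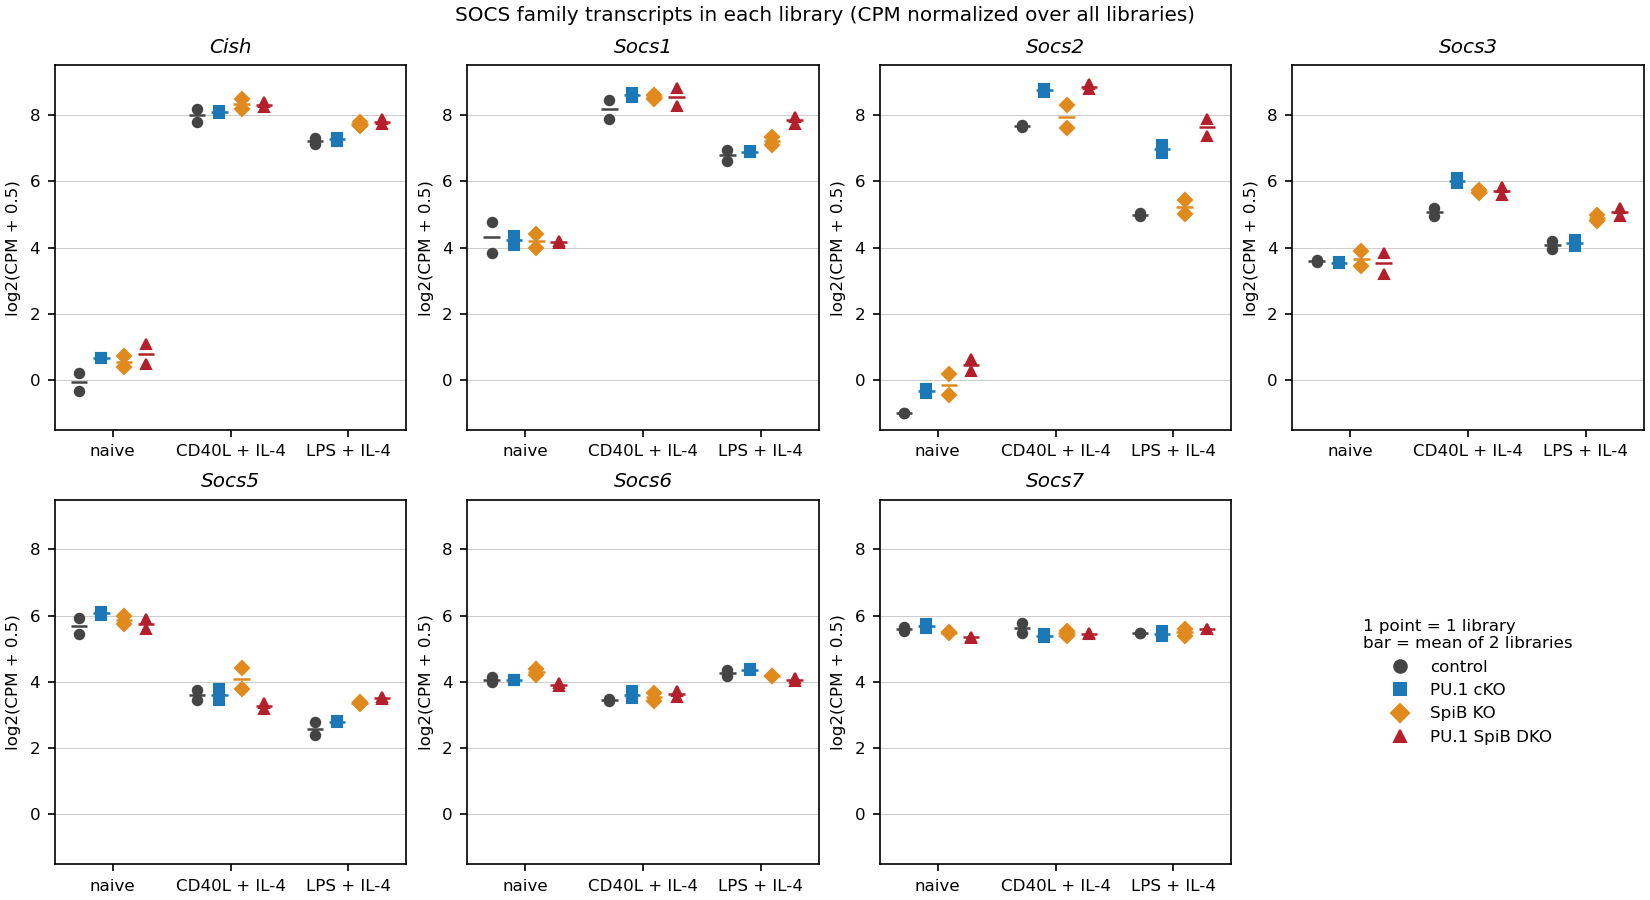
Level of each SOCS family transcript in each of the 24 libraries, as log2(CPM + 0.5) with CPM normalized over all libraries, by stage (x axis) and genotype (colour and symbol); short bars are means of 2 libraries. Cish and Socs2 lie near the bottom of the axis in naive cells and high in both cultures, Socs5 falls from naive cells to cultures, and Socs7 is level.

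Levels of different genes were compared per length, on the deposited log2 RPKM (reads per kilobase and library size) of the control libraries and only within a stage. In naive cells Socs1 (4.03 ± 0.64, SD, n = 2) and Socs5 (3.56 ± 0.35) led and their libraries overlapped, followed by Socs7 (2.78 ± 0.05), Socs6 (2.41 ± 0.09), Socs3 (2.17 ± 0.01) and Cish (-1.97 ± 0.76), with Socs2 at the value given to a count of 0. With CD40L + IL-4 the order was Socs1 (7.89 ± 0.42), Cish (6.89 ± 0.31), Socs2 (6.25 ± 0.01), Socs3 (3.57 ± 0.18), Socs7 (2.76 ± 0.19), Socs6 (1.62 ± 0.05) and Socs5 (1.33 ± 0.20), and no neighbours overlapped. With LPS + IL-4 it was Socs1 (6.51 ± 0.29), Cish (6.13 ± 0.19), Socs2 (3.604 ± 0.07), then Socs7 (2.69 ± 0.03), Socs3 (2.68 ± 0.18) and Socs6 (2.63 ± 0.12), which overlapped one another, and Socs5 (0.45 ± 0.24). Socs5 thus went from the second place in naive cells to the last in both cultures.

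**Figure D2:**
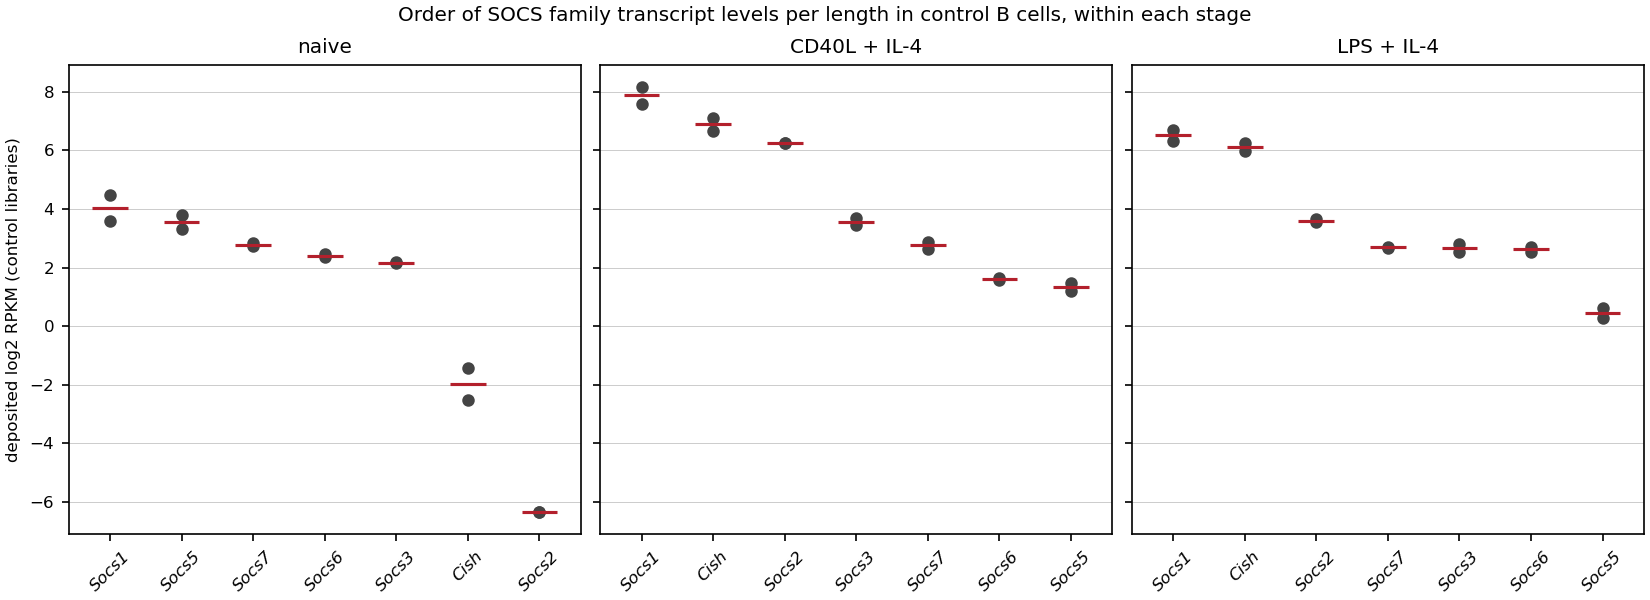
Deposited log2 RPKM of the 7 members in the control libraries of each stage, ordered by mean; points are libraries and red bars means of 2. Socs1 leads at every stage, and Socs2, at the floor of the scale in naive cells, follows Socs1 and Cish in both cultures.

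In naive cells Socs2 and Cish were at low counts, and Cish in DKO was the 1 call among the other 6 members. Socs2 read 0 CPM in both control libraries, 0.255 and 0.316 CPM for PU.1 cKO (4 and 5 counts), 0.595 and 0.216 CPM for SpiB KO (10 and 4 counts) and 0.677 and 1.001 CPM in DKO (11 and 19 counts). Every mutant library was above both controls, but the gene passed the filter on low counts only through mutant libraries, so a difference was built into its testing and its fitted fold change depends on the prior count. Against the floor of 3 counts per library the mutant means were at least 1.35-fold, 1.91-fold and 3.94-fold higher. These naive Socs2 values are a description, and no test of them is given. Cish read 0.280 and 0.640 CPM in control, 1.02 and 1.01 CPM for PU.1 cKO, 1.07 and 0.755 CPM for SpiB KO and 1.54 and 0.843 CPM in DKO. Its DKO difference of 1.35 (SE 0.57, adjusted p = 0.126) was called, and the call was lost without the first control library (0.86) or the first DKO library (0.87) and under DESeq2 or voom. Only 1 control library reached the 0.5 CPM of the filter. Cish therefore needed mutant libraries to be tested, which favours a rise, and its naive values too are read as a description. Socs1 read 12.6 and 25.9 CPM in control and 14.4 to 19.7 CPM in the mutants, inside the control range. Without the first control library it was called lower in all 3 mutants, by 0.61 to 0.66, so 1 control library set the value. Socs3, Socs5, Socs6 and Socs7 were called in no naive comparison with control, with differences between -0.25 and 0.35, although Socs5 in PU.1 cKO was called (0.66) without the second control library.

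Of the 6 members other than Socs2, 0 were called for PU.1 cKO, 0 for SpiB KO and 1 for DKO (Cish, higher) by edgeR, where 4.18%, 6.01% and 12.6% of the 12500 genes tested were called higher. Since Cish passed the filter only with mutant libraries, its call is not read against the last share. DESeq2 and voom called 0 of the 6 in each, and at an unadjusted p under 0.05 edgeR found 0, 0 and 1, DESeq2 0, 0 and 0, and voom 1, 0 and 0. The 3 mutants of a stage were set against 1 pair of control libraries, so their comparisons are not independent. Between the mutants, no member was called in DKO against PU.1 cKO (12.9% of all genes called) or against SpiB KO (3.03%) by edgeR. At an unadjusted p under 0.05 edgeR found 1 member in each, DESeq2 1 and 0, and voom 1 and 1. Sums of marker genes of other cells were higher in naive SpiB KO and DKO libraries, from cells that the study sorted as CD3-negative, B220-positive and CD138-negative. The sum of 7 T cell markers was 17.6 to 53.8 CPM in control, 29.9 to 33.6 for PU.1 cKO, 314 to 392 for SpiB KO and 439 to 445 in DKO. Cd4, Cd8a and Cd8b1 made up nearly all of this rise, with Cd8a at 11.98 and 2.35 CPM in control and 266 and 233 CPM in DKO. The defining T cell genes Cd3d, Cd3e and Cd3g lay between 0 and 1.23 CPM in every naive library. Cd3d read 0.911 and 0.569 CPM in control and 1.23 and 0.790 CPM in DKO, and Cd3g 1.12 and 0.142 CPM and 0.984 and 0.949 CPM, both with overlap. Cd3e (0.210 and 0.284 CPM in control, 0.431 and 0.632 CPM in DKO) and Trac (1.05 and 0.711 CPM, 1.72 and 2.42 CPM) were low but higher in DKO without overlap. The sum of 6 plasmacytoid dendritic cell markers was 190.3 to 295, 218 to 236, 997 to 1252 and 1321 to 1433 CPM in the same order, and their part in the naive values of Socs2 and Cish was not tested. In PU.1 cKO neither sum was above the control range, and Socs2 rested there on 4 and 5 counts, near the floor of 3 counts. In bulk RNA, a different share of cells and a different amount of RNA per cell cannot be told apart.

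With CD40L + IL-4, Socs2 and Socs3 rose in PU.1 cKO and in DKO cells. Socs2 read 215 and 204 CPM in control, 452 and 419 CPM for PU.1 cKO, 198 and 320 CPM for SpiB KO, and 502 and 447 CPM in DKO. All PU.1 cKO and DKO libraries were above all control and SpiB KO libraries. Socs2 rose by 1.06 (SE 0.21, adjusted p = 0.0103, 2.08-fold) in PU.1 cKO and by 1.18 (SE 0.21, adjusted p = 0.00407, 2.26-fold) in DKO, and both calls held without any 1 library. In SpiB KO the libraries straddled the control range, with a difference of 0.31 (SE 0.21, adjusted p = 1). Socs3 read 31.4 and 36.9 CPM in control, 62.0 and 68.4 CPM for PU.1 cKO, 50.1 and 53.6 CPM for SpiB KO, and 57.3 and 48.1 CPM in DKO. Every mutant library was above both controls. Socs3 rose by 0.94 (SE 0.16, adjusted p = 0.00489) in PU.1 cKO and by 0.63 (SE 0.16, adjusted p = 0.0288) in DKO, the second call being lost without the first control library (0.51) or the first DKO library (0.50). Its SpiB KO difference of 0.60 (SE 0.16) was close in size but had an adjusted p of 0.534.

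The other 5 members were not called against control with CD40L + IL-4. Cish differed by 0.06 (SE 0.18) for PU.1 cKO, 0.33 (SE 0.18) for SpiB KO and 0.30 (SE 0.18) for DKO. The levels of Socs1 were 244 and 360 CPM in control, 377 and 412 CPM for PU.1 cKO, 398 and 366 CPM for SpiB KO, and 461 and 318 CPM in DKO, and its DKO difference of 0.37 (SE 0.22) became a call (0.67) without the second control library. Socs6 and Socs7 differed by -0.28 to 0.20. Socs5 read 10.9 and 13.3 CPM in control, 13.4 and 10.5 CPM for PU.1 cKO, 21.1 and 13.4 CPM for SpiB KO and 8.85 and 10.0 CPM in DKO. Between the mutants, DKO was lower than SpiB KO for Socs5 (-0.87, SE 0.26, adjusted p = 0.0586) and higher for Socs2 (0.87, SE 0.21, adjusted p = 0.0232). Both were lost without the first SpiB KO library, at -0.51 and 0.56, and the Socs5 call also without either DKO library. Of all genes 8.18% were called higher and 7.11% lower in that comparison.

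In all, 2 of 7 members were called higher for PU.1 cKO, 0 for SpiB KO and 2 for DKO, where 6.27%, 0.0786% and 9.13% of the 12721 genes tested were called higher. In SpiB KO only 17 genes were called in either direction, and edgeR, DESeq2 and voom each put 1 member at an unadjusted p under 0.05. DKO against PU.1 cKO gave 0 called members by edgeR (4.06% of all genes), and 0 at an unadjusted p under 0.05 by edgeR, DESeq2 or voom. Markers of T cells summed to 4.21 CPM or less in every library of this stage. The sum of 5 plasma cell markers was 825 to 974 CPM in control, 1182 to 1378 for PU.1 cKO, 765 to 1030 for SpiB KO and 1721 to 1888 in DKO (with Tnfrsf17 at 0), so it was above control in the same genotypes as Socs2, and its part in the result was not tested. Most of it was Xbp1, at 808 and 955 CPM in control and 1643 and 1797 CPM in DKO. Sdc1, the gene of CD138, read 4.30 and 4.19 CPM in control and 19.5 and 17.4 CPM in DKO.

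With LPS + IL-4, 5 members rose in DKO. In the single mutants Socs2 rose for PU.1 cKO, and Socs3 and Socs5 rose for SpiB KO. Socs2 read 33.5 and 30.6 CPM in control, 118 and 141 CPM for PU.1 cKO, 43.8 and 32.4 CPM for SpiB KO, and 255 and 176 CPM in the libraries labelled DKO. PU.1 cKO and DKO libraries were all above those of control and SpiB KO, and DKO libraries were above those of PU.1 cKO. Socs2 rose by 2.02 (SE 0.19, adjusted p = 2.04e-04, 4.06-fold) in PU.1 cKO and by 2.76 (SE 0.20, adjusted p = 1.55e-05, 6.75-fold) in DKO, calls that held without any 1 library. SpiB KO differed by 0.26 (SE 0.19, adjusted p = 0.612). Socs2 was also higher in DKO than in SpiB KO (2.49, SE 0.20) and than in PU.1 cKO (0.74, SE 0.18, adjusted p = 0.0235), the latter being lost without the first DKO library (0.44).

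Socs1, Socs3 and Socs5 also rose in DKO and were not called in PU.1 cKO. Socs1 read 128 and 99.0 CPM in control, 124 and 123 CPM for PU.1 cKO, 139 and 164 CPM for SpiB KO and 231 and 263 CPM in DKO. The DKO libraries were above those of SpiB KO, which were above all control and PU.1 cKO libraries, and the DKO rise was 1.13 (SE 0.13, adjusted p = 2.39e-04, 2.18-fold), against 0.12 (SE 0.13) in PU.1 cKO and 0.42 (SE 0.13, adjusted p = 0.17) in SpiB KO. Socs3 read 18.7 and 15.2 CPM in control, 16.8 and 19.2 CPM for PU.1 cKO, 32.4 and 28.1 CPM for SpiB KO and 39.4 and 32.4 CPM in DKO. All SpiB KO and DKO libraries lay above all control and PU.1 cKO libraries. Socs3 rose by 0.85 (SE 0.15, adjusted p = 0.0193) in SpiB KO and by 1.09 (SE 0.15, adjusted p = 5.55e-04) in DKO, and differed by 0.09 (SE 0.15) in PU.1 cKO. Socs5 followed the same order at lower levels, with 6.66 and 4.77 CPM in control, 6.63 and 6.80 CPM for PU.1 cKO, 10.2 and 9.86 CPM for SpiB KO and 11.7 and 12.0 CPM in DKO. It rose by 0.84 (SE 0.17, adjusted p = 0.0385) in SpiB KO and by 1.07 (SE 0.17, adjusted p = 0.00139) in DKO. In SpiB KO, the Socs3 call was lost without the second control library (0.69), and the Socs5 call without that library (0.59) or without either SpiB KO library (0.82 and 0.86, adjusted p = 0.188 and 0.167). Without the first control library Cish (0.63) and Socs1 (0.62) were called in SpiB KO as well.

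Cish itself read 165 and 141 CPM in control, 165 and 155 CPM for PU.1 cKO, 208 and 227 CPM for SpiB KO and 230 and 252 CPM in DKO. All SpiB KO and DKO libraries were again above the others. The DKO difference of 0.65 (SE 0.10, adjusted p = 0.00112, 1.57-fold) was just over the fold threshold and fell under it without the second control library (0.54), without the second DKO library (0.57) or in a fit of all 24 libraries (0.58), and the SpiB KO difference of 0.51 (SE 0.10, adjusted p = 0.0338) was just under it. Socs6 and Socs7 were not called, with 16.98 to 21.2 CPM and 42.5 to 52.0 CPM over the 8 libraries and DKO differences of -0.15 (SE 0.11) and 0.20 (SE 0.10).

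Thus 5 of 7 members were called in DKO with LPS + IL-4, all higher, beside 13.7% of the 12445 genes tested called higher. The median log2 fold change of the 7 members was 1.07, against 0.00756 over all genes. The same 5 were called by DESeq2, by voom with quantile normalization and with DESeq2's size factors. For PU.1 cKO 1 member was called higher (6.68% of all genes), for SpiB KO 2 (2.25%). Against PU.1 cKO, DKO was higher for 5 members, beside 9.12% of all genes: Socs3 (0.9996), Socs1 (1.002), Socs5 (0.82), Socs2 (0.74) and Cish (0.59). The Cish value was lost without the second PU.1 cKO library (0.55) or the second DKO library (0.50). Against SpiB KO, DKO was higher for Socs2 and Socs1 (0.71, SE 0.13), the latter lost without the first SpiB KO library (0.57), beside 8.64% of all genes. The sum of 5 plasma cell markers was 391 to 398 CPM in control, 733 to 810 for PU.1 cKO, 438 to 484 for SpiB KO and 1147 to 1164 in DKO, with Tnfrsf17 at 0 in control. The sum, like Socs2, was highest in DKO and next in PU.1 cKO, and its part in the result was not tested. Xbp1 made up most of it, with 365 and 364 CPM in control and 1059 and 1085 CPM in DKO. Prdm1 read 22.5 and 18.6 CPM in control, 44.2 and 47.8 CPM for PU.1 cKO and 64.4 and 58.1 CPM in DKO. Igj was also higher, with 2.12 and 1.35 CPM in control, 5.65 and 4.025 CPM for PU.1 cKO and 14.9 and 12.6 CPM in DKO. For SpiB KO, where Socs2 was not called, Igj read 5.885 and 6.22 CPM, above both PU.1 cKO libraries. Prdm1 read 23.2 and 23.9 CPM there. Sdc1 was level, at 8.56 and 7.60 CPM in control, 7.91 and 7.83 CPM for PU.1 cKO and 8.27 and 7.61 CPM in DKO. For SpiB KO it was lower, at 5.64 and 5.33 CPM. T cell markers summed to 2.77 CPM or less, and macrophage and monocyte markers to 3.89 CPM or less, in every LPS library.

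**Figure D3:**
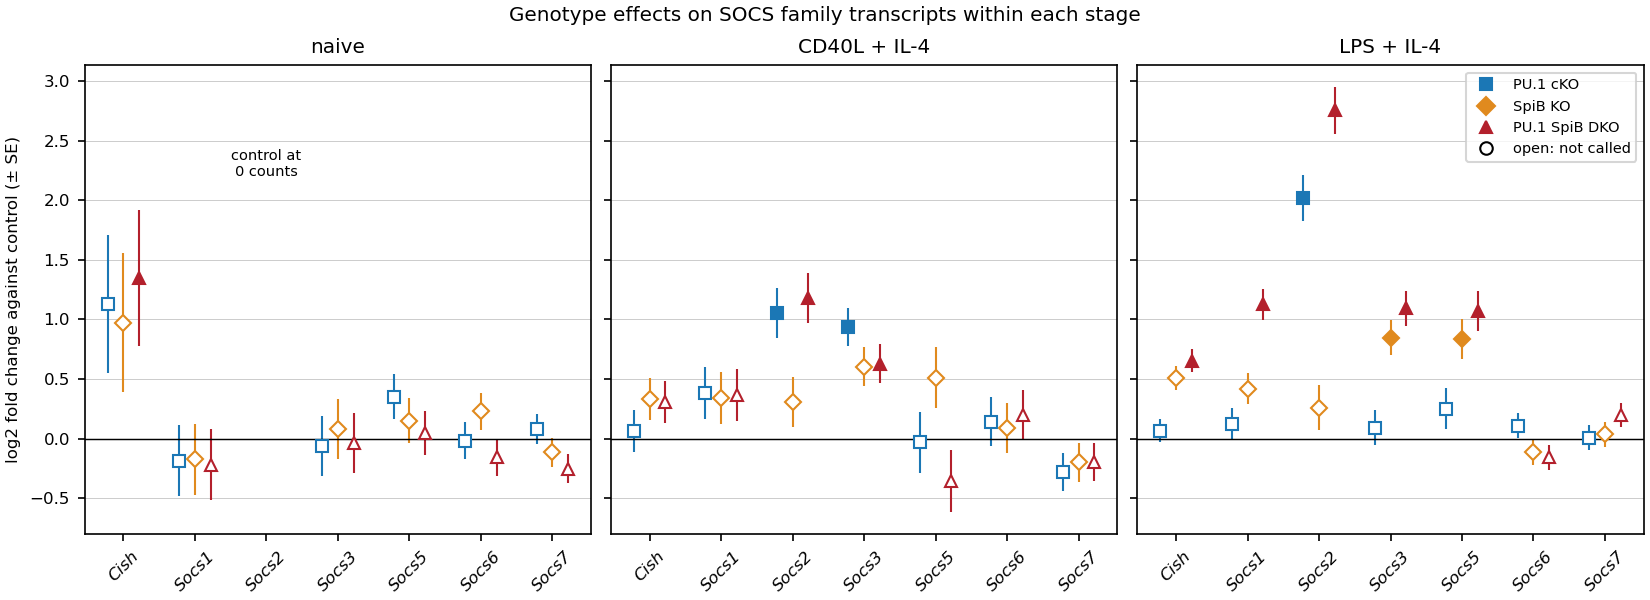
Log2 fold change against control with its SE for each member (x axis), genotype (colour and symbol) and stage (panel), from edgeR fits of 8 libraries per stage; filled symbols were called at an adjusted p under 0.15 and a fold over 1.5. Socs2 is filled in PU.1 cKO and DKO in both cultures and left out in naive cells, where control had 0 counts, and 5 members are filled in DKO with LPS + IL-4.

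Whether the double loss exceeded the sum of the single losses was asked with an interaction term at each stage. Control had Cre without floxed Spi1, and SpiB KO had floxed Spi1 without Cre. Loss of SpiB, Cre and the floxed allele thus cannot be told apart in the SpiB KO difference that enters the term. In naive DKO cells, moreover, the deletion of Spi1 was partial. No member passed an adjusted p under 0.15 by edgeR at any of the stages (naive, CD40L + IL-4, LPS + IL-4), where 0.936%, 1.17% and 1.48% of all genes did. At an unadjusted p under 0.05 edgeR found 0, 2 and 1 members, DESeq2 0, 1 and 2, and voom 0, 1 and 1. Nearest were Socs3 with CD40L + IL-4 (-0.91, SE 0.23, adjusted p = 0.161), where DKO was below the sum of the single effects, and Socs1 with LPS + IL-4 (0.58, SE 0.18, adjusted p = 0.279), where it was above. DESeq2 passed both, with adjusted p of 0.0743 and 0.0838. When replicate numbers entered the fit as a block, which the libraries' deviations bear out in naive cells and with LPS + IL-4, the interaction passed for Socs1 with LPS + IL-4 (0.58, adjusted p = 0.0905) and for Socs5 in naive cells (-0.48, adjusted p = 0.146).

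The genotype effects differed between stages for several members in the fit of all 24 libraries, called at an adjusted p under 0.15 alone. The DKO effect with LPS + IL-4 was larger than in naive cells for Socs1 (by 1.27, SE 0.35, adjusted p = 0.0177), Socs3 (by 1.07, SE 0.27, adjusted p = 0.0117) and Socs5 (by 0.95, SE 0.29, adjusted p = 0.0277). The Socs1 difference was lost without the second naive control library (0.70), as was that of Socs5 (0.68), which was also lost without the second LPS control library (0.69). In that comparison 5 of 7 members passed, beside 29.6% of all genes, and Socs2 among them rests on 0 counts in naive control. These differences set cultures against naive DKO cells in which, as given above, the deletion was partial. Between the cultures, the DKO effect was larger with LPS + IL-4 for Socs2 (by 1.49, SE 0.30, adjusted p = 0.00376) and Socs5 (by 1.34, SE 0.31, adjusted p = 0.00847), both without exception when single libraries were left out, and 28.6% of all genes passed. The PU.1 cKO effect on Socs3 was larger with CD40L + IL-4 than in naive cells (by 1.02, SE 0.28, adjusted p = 0.0438). The shares of all genes that passed were 9.05% (CD40L minus naive), 6.34% (LPS minus naive) and 3.09% (LPS minus CD40L) for the PU.1 cKO effect, with 1, 0 and 1 members. Where none passed, edgeR and DESeq2 each put 1 member at an unadjusted p under 0.05 and voom 0. The shares were 2.15% and 5.65% for the SpiB KO effect (CD40L minus naive, LPS minus naive), with 0 and 1 members, and 16.8% for the DKO effect CD40L minus naive, with 2. Socs2, resting on 0 counts in naive control, was the 1 member for SpiB KO and 1 of the 2 for DKO. For the SpiB KO effect CD40L minus naive, edgeR, DESeq2 and voom each put 1 member at an unadjusted p under 0.05. No gene at all (0%) passed for the SpiB KO effect between the cultures by edgeR. Among the members, edgeR, DESeq2 and voom each put 0 at an unadjusted p under 0.05 there, so the SpiB KO rises of Socs3 and Socs5 seen with LPS + IL-4 were not shown to differ from the values with CD40L + IL-4.

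Other genes of the pathway moved in both directions in DKO. Over all genes tested, 12.6% were called higher and 8.64% lower in naive DKO, 9.13% and 9.2% with CD40L + IL-4, and 13.7% and 6.52% with LPS + IL-4, against which the counts of each list are to be set. The 11 JAK and STAT genes, the kinases and transcription factors that SOCS proteins restrain, gave 0 higher and 1 lower in naive cells, 1 and 3 with CD40L + IL-4, and 1 and 2 with LPS + IL-4. Stat2 was lower in naive cells (-0.71, lost without the second control library, -0.27, or the first DKO library, -0.48) and with CD40L + IL-4 (-1.57), as was Jak2 (-1.42) in the latter. With LPS + IL-4 Stat4 rose (0.97, SE 0.12). List medians were -0.36, -0.46 and -0.04, against 0.00217, 0.00155 and 0.00756 over all genes. In control cells, Jak2 rose (1.12) from naive cells to CD40L + IL-4, and Stat5a rose (1.40) and Stat6 fell (-0.78) with LPS + IL-4.

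Among 20 receptor genes that signal through JAKs, 7 were higher and 5 lower in naive DKO, 4 and 3 with CD40L + IL-4, and 4 and 4 with LPS + IL-4. List medians were -0.18, -0.22 and 0.27. Csf2rb2 (2.43) and Il7r (2.25) changed most in naive cells. Il2rb, the shared beta chain of the IL-2 and IL-15 receptors, read 2.59 and 5.40 CPM in control and 58.9 and 72.5 CPM in DKO with LPS + IL-4 (3.96, SE 0.36), and rose with CD40L + IL-4 as well (3.74), where Il6ra fell (-3.06). Il4ra, the ligand-binding chain of the IL-4 receptor, read 1070 and 976 CPM in control, 1639 and 1599 CPM for PU.1 cKO, 1231 and 1166 CPM for SpiB KO and 2578 and 2192 CPM in DKO with LPS + IL-4 (1.22, SE 0.11, adjusted p = 5.12e-05). In naive cells it was lower in DKO (-0.89, SE 0.13), a gene and stage picked after its value was seen.

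Of 10 other brakes on the pathway, phosphatases and PIAS proteins among them, none was called higher in DKO at any stage. Ptprc was called lower in naive cells (-0.65), a call lost without the second control library (-0.46), without the first DKO library (-0.44) or under voom, and Ptpn6, the phosphatase SHP-1, was lower with CD40L + IL-4 (-1.19, SE 0.15). With LPS + IL-4 none of the 10 was called by edgeR, DESeq2 or voom, though 6, 6 and 5 had an unadjusted p under 0.05, with a list median of 0.07. The 4 genes of the ligase that the SOCS box recruits (Tceb1, Tceb2, Cul5 and Rnf7) were called in no DKO comparison with control by edgeR, DESeq2 or voom. In naive cells none had an unadjusted p under 0.05 by these tools, with CD40L + IL-4 1, 1 and 2 did, and with LPS + IL-4 2, 2 and 2 did. In control cells Cul5 (1.31) and Tceb1 (0.88) were higher with LPS + IL-4 than in naive cells.

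Of the 7 other SOCS box genes listed, 6 passed the filter. Among them was Socs4, a SOCS gene outside the members counted above. It was not called in DKO against control, with differences of -0.20 (SE 0.14) in naive cells, -0.36 (SE 0.22) with CD40L + IL-4 and 0.08 (SE 0.10) with LPS + IL-4. Spsb1, a SOCS box protein with a SPRY domain, rose in DKO at each stage, by 2.34 (SE 0.55) in naive cells, 2.15 (SE 0.17) with CD40L + IL-4 and 1.60 (SE 0.11) with LPS + IL-4. With CD40L + IL-4 it read 13.0 and 15.6 CPM in control, 42.8 and 38.9 CPM for PU.1 cKO, 23.9 and 21.4 CPM for SpiB KO and 63.7 and 63.1 CPM in DKO, with no overlap between any pair of groups. Spsb2 (1.21) and Wsb2 (0.70, named after its value was seen) also rose with LPS + IL-4, and Wsb1 fell in naive cells (-0.74). The naive value of Spsb1 rested on 4 to 87 counts per library.

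Il4ra and Il2ra stand on both the receptor list and the list of STAT target genes. Of 14 STAT target genes tested with LPS + IL-4, 4 were higher and 5 lower in DKO, with a median of 0.06. Gfi1, a transcriptional repressor, rose from 1.47 and 0.846 CPM to 16.7 and 13.1 CPM (3.78, SE 0.26), and the chemokine gene Ccl22 fell from 461 and 556 CPM to 14.3 and 39.3 CPM (-4.26, SE 0.39). The interferon-induced genes Isg15 (-2.27), Ifit3 (-2.21) and Gbp2 (-1.54), named after their values were seen, fell as well. Isg15 read 99.7 and 119 CPM in control, 35.5 and 34.4 CPM for PU.1 cKO, 64.1 and 63.4 CPM for SpiB KO and 20.3 and 25.1 CPM in DKO, and no groups overlapped. With CD40L + IL-4 5 were higher and 2 lower, led by Gfi1 (2.11) and Il2ra (2.03). In naive cells 2 were higher and 3 lower, among them Fcer2a (-2.99) and Il2ra (1.79).

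**Figure D4:**
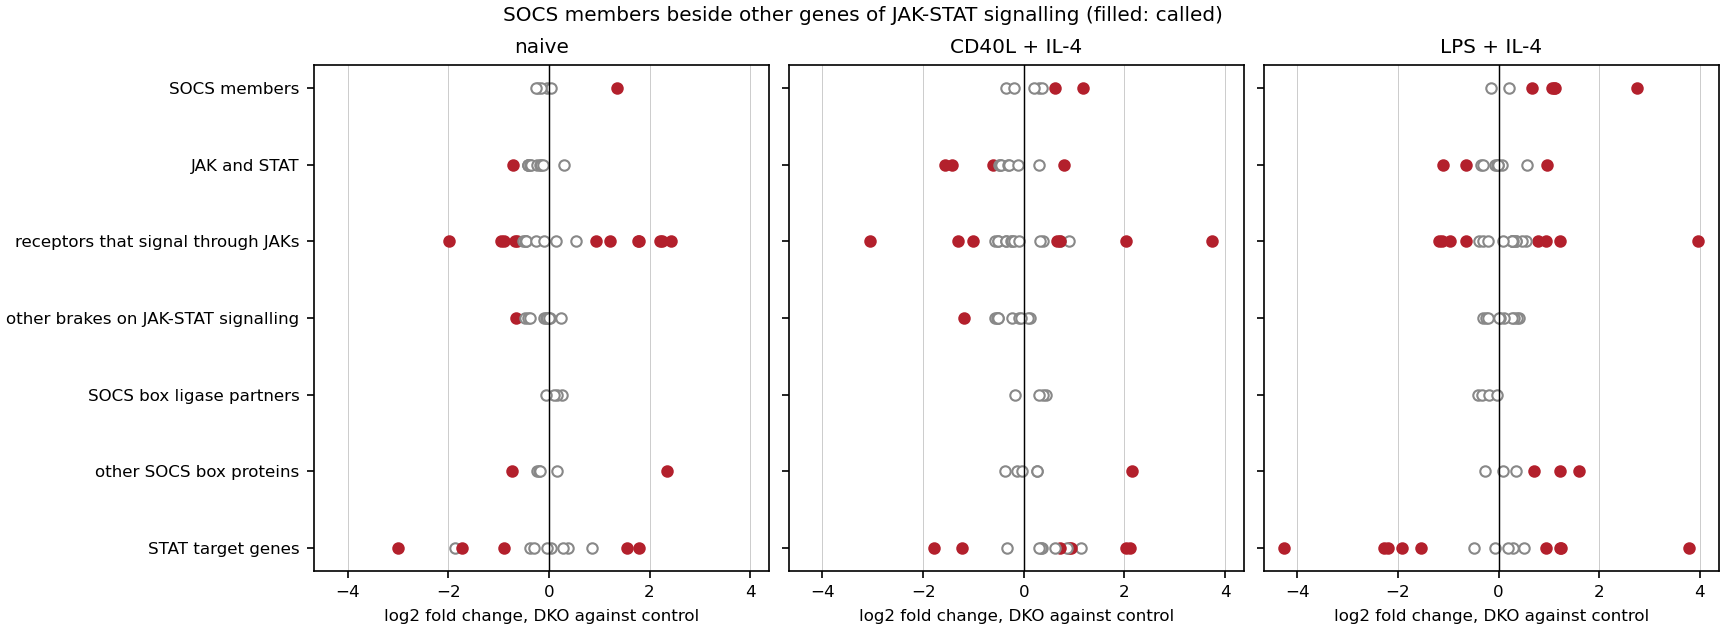
Log2 fold change of DKO against control (x axis) for the SOCS members and for each gene of 6 lists of the pathway (rows), by stage (panel); filled points were called. With LPS + IL-4 the 5 filled SOCS points all lie to the right of 0, while receptors and STAT target genes have filled points on both sides and the other brakes and ligase partners have none. Socs2 is left out of the naive panel, where control had 0 counts.

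Over the 12 means of genotype and stage, the genes whose log2(CPM + 0.5) ran most closely with each member were sought among 13683 others, as a description that mostly reads the change between naive cells and cultures. Cish ran with Nfil3 (Pearson's r = 0.997), Aurkb (0.996) and Ccnf (0.996), of which Nfil3 is itself on the list of STAT target genes. Socs1 ran with Plekhf1 (0.995), Gm20139 (0.995) and Hcn2 (0.993), and Socs2 with Hcn2 (0.993), Klhdc2 (0.992) and Zbed3 (0.992). Socs5 ran with Tcp11l2 and Rftn2, and for Socs7, the level member, the best likeness was 0.853 (Rcbtb1). Among the members, Socs1 and Socs2 ran together (0.983), as did Cish with Socs2 (0.97) and with Socs1 (0.968), while Socs5 ran against Cish (-0.921). These points share libraries, depth and stages.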

How the data were processed

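RNA-seq counts and log2 RPKM values were deposited by the authors for 24 libraries. Per the submitters' notes and methods, reads were aligned with Subread to GRCm38 (mm10) and the authors' raw counts were made per gene with featureCounts over RefSeq exons. Counts of the CD40L libraries came in 1 table and those of naive and LPS libraries in another. The deposited log2 RPKM values were quantile-normalized by the authors, and the naive and CD40L libraries share a gene list there that the LPS libraries do not. Entries without a symbol (517, 0.162% of counts) stayed out.

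Counts were tested with edgeR 4.0.16 (R 4.3.3; quasi-likelihood, TMM, Benjamini-Hochberg over all genes) after a filter of 0.5 CPM in 2 libraries, with the 8 libraries of a stage in 1 fit. Comparisons between stages used 1 fit of all 24. A call needed an adjusted p under 0.15 and a fold over 1.5, and for interactions and differences between stages the adjusted p alone. All tests were two-sided. With 2 libraries a group, an exact permutation test cannot go below 0.333, so none was used. The scripts were tested on simulated data. Alternatives used DESeq2 1.42.0, voom (limma 3.58.1), other size factors, no filter, a filter on log2 RPKM, a stricter adjusted p, a replicate block, all 24 libraries and leaving out each library. For interactions and stage differences all but the block and DESeq2 were chosen after seeing the data.

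Same-numbered libraries deviated together (r 0.139 to 0.327 in naive cells, 0.409 to 0.573 with LPS, every pair above 0.1), so the numbers were taken to pair libraries there. The main tests left this pairing out, and only the replicate block used it. With CD40L r was -0.0603 to 0.352 and the libraries were not taken as paired. The pairing comes from the data, as the labels give a number only.

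List genes named were, in each list and comparison, up to 2 called genes of largest change, and others are marked in the text. One gene that the rule names is not reported here. Members and lists were chosen with earlier results of these data known. Intervals and floors cover counting error only.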

Additional observations from a re-analysis of the deposited data

Results flagged for a closer look

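The effects below differed between stages in the fit of all 24 libraries, by a test of the difference itself (edgeR, adjusted p under 0.15). Naive DKO cells still held part of the floxed exon, as the study describes. Differences between DKO effects with LPS + IL-4 and in naive cells were 1.27 (SE 0.35, adjusted p = 0.0177) for Socs1, 1.07 (SE 0.27, adjusted p = 0.0117) for Socs3, 0.95 (SE 0.29, adjusted p = 0.0277) for Socs5 and 0.39 (SE 0.17, adjusted p = 0.119) for Socs7. The Socs1 value was lost without the second naive control library (0.70), the Socs5 value without that library (0.68) or the second LPS control library (0.69), and the Socs7 value in 7 of 8 fits that left out 1 library.

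Between the cultures, the DKO effect was larger with LPS + IL-4 by 1.49 (SE 0.30, adjusted p = 0.00376) for Socs2 and by 1.34 (SE 0.31, adjusted p = 0.00847) for Socs5. For Socs3, the PU.1 cKO effect with CD40L + IL-4 exceeded that in naive cells by 1.02 (SE 0.28, adjusted p = 0.0438), and the effect with LPS + IL-4 was below that with CD40L + IL-4 (-0.89, SE 0.26, adjusted p = 0.125), the latter being lost whichever of 8 libraries was left out. The DKO effect on Socs3 with CD40L + IL-4 exceeded that in naive cells by 0.68 (SE 0.28, adjusted p = 0.142), lost in 5 of 8 such fits.

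Socs2 differences against naive cells rest on 0 counts in both naive control libraries, so their sizes depend on the prior count. They were -6.35 for DKO with CD40L + IL-4, -4.86 for DKO with LPS + IL-4 and -6.21 for SpiB KO with LPS + IL-4. Each passed an adjusted p under 0.15, but they are given as a description and their tests are not read. The first no longer passed without the second naive control library, the second in 7 of 8 fits and the last in 6.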

How the results depend on the processing

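Over 210 comparisons of single members, 2241 of 2370 alternatives kept the call, 75 lost one, 54 gained one and none reversed a call. Of 580 alternatives for 58 results on named list genes, 567 kept the call, 13 lost it and none reversed it. DESeq2 gave no adjusted p in 3 cases. With 2 libraries a group, 1 library often decided a call, and naive Cish and Socs2 rest on 0 to 25 counts. The cause of the changes that follow was not tested.

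Numbers of members called moved by over 1.5 times as follows, where naive counts include Socs2, whose difference from 0 counts the filter built in. They also include Cish, which passed that filter only with mutant libraries. DESeq2 gave 0 for naive PU.1 cKO (1 in the report), 1 for naive DKO (2), 1 for the interactions with CD40L and with LPS (0), 2 for the PU.1 cKO effect LPS minus CD40L (1), 1 for the SpiB KO effect CD40L minus naive (0) and 2 for LPS minus naive (1). All 24 libraries gave 2 for naive PU.1 cKO, 1 for naive DKO against PU.1 cKO (0) and 1 for the CD40L interaction. An adjusted p under 0.05 gave 0 for naive PU.1 cKO and SpiB KO, 1 for naive DKO and 1 for DKO against SpiB KO with CD40L (2). The filter on log2 RPKM gave 0 for naive PU.1 cKO, SpiB KO and DKO. Voom gave 0 for naive SpiB KO (1), 1 for naive DKO, 2 for PU.1 cKO LPS minus CD40L, 0 for SpiB KO LPS minus naive, 1 for DKO CD40L minus naive (2) and 4 for DKO LPS minus CD40L (2). No filter gave 1 for SpiB KO with CD40L (0), 1 and 2 for the CD40L and LPS interactions, 2 for PU.1 cKO CD40L minus naive (1) and LPS minus CD40L, 1 and 2 for SpiB KO CD40L minus naive and LPS minus naive, and 4 for DKO CD40L minus naive. DESeq2's size factors gave 1 for the last. Smaller moves were 3 for DKO LPS minus CD40L by DESeq2, no filter and the block, 4 for DKO LPS minus naive (5) by voom, no filter and the block, 4 with LPS for DKO (5) in all 24 libraries and for DKO against PU.1 cKO (5) there and with no filter, and, under the log2 RPKM filter, 5 for CD40L (6) and 3 for LPS (4) against naive control.

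The replicate block gave 1 for each of the 3 interactions (0) and 2 for SpiB KO LPS minus naive, where Socs3 passed (0.76, adjusted p = 0.148). It also passed Socs6 for DKO LPS minus CD40L (-0.43, adjusted p = 0.144) and lost Socs2 for DKO LPS minus naive (adjusted p = 0.158). It changed no other call of a member.

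Leaving out 1 library at a time gave 0 to 1 for naive PU.1 cKO, 0 to 2 for naive SpiB KO, 1 to 2 for naive DKO, 1 to 3 for DKO and 0 to 2 for DKO against SpiB KO with CD40L, 0 to 4 for SpiB KO and 1 to 2 for DKO against SpiB KO with LPS, and 0 to 1 for the CD40L and LPS interactions. For differences between stages it gave 1 to 2 and 0 to 0 for PU.1 cKO (CD40L minus naive, LPS minus CD40L), 0 to 1 and 0 to 2 for SpiB KO (CD40L minus naive, LPS minus naive), and 1 to 2, 1 to 4 and 2 to 4 for DKO (CD40L minus naive, LPS minus naive, LPS minus CD40L).

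Counts of genes called moved by over 1.5 times in these cases. An adjusted p under 0.05 gave 722 (1342 in the report's fit), 632 (1203) and 208 (379) for naive PU.1 cKO, SpiB KO and DKO against SpiB KO, 1048 (1714), 9 (17), 1536 (2331), 211 (517) and 1256 (1946) for PU.1 cKO, SpiB KO, DKO, DKO against PU.1 cKO and DKO against SpiB KO with CD40L, and 228 (397) for SpiB KO with LPS. The log2 RPKM filter gave 794, 1761 (2652), 901 (1614) and 246 for naive SpiB KO, DKO, DKO against PU.1 cKO and DKO against SpiB KO, and 830 (1310), 1008 (1568) and 1007 (1588) for PU.1 cKO, DKO against PU.1 cKO and DKO against SpiB KO with LPS. No filter and the block gave 615 and 604 for naive DKO against SpiB KO, 193 and 57 for SpiB KO and 998 and 843 for DKO against PU.1 cKO with CD40L, and 653 and 627 for SpiB KO with LPS. All 24 libraries gave 73, 1006 and 250 for the last 3, and DESeq2 76 for SpiB KO with CD40L.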
